A study of Mus musculus with 21 samples.

Results

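The 10 genes described here mark the inhibitory interneurons of the hippocampus. Among them Gad1, Gad2 and Slc32a1 serve to make GABA and load it into vesicles. The others are the class markers Pvalb, Sst, Vip, Npy and Cck, and Reln and Cnr1. The 10 genes are a list of names, with no value in the rule that picks them. The list was chosen with earlier results of these data known, so it is not independent of them. All 10 were found among the 24411 genes of each of the 2 tables. The tables hold bulk RNA-seq of hippocampi from 21 male wild-type mice, in 2 experiments that share no mouse. In the transfer experiment, B6.SJL-Ptprca Pepcb/BoyJ recipients aged 4 months received CD8+ T cells by tail vein from C57BL/6J donors. The aged-T group (5 mice) had donors of 22 to 28 months and the young-T group (6 mice) donors of 3 to 4 months. Recipients of both groups had first been given CD8a antibody on days -11 and -7, so neither group has an untouched T cell pool, and untreated mice are not analysed here. The depletion experiment used mice of 22 to 24 months, whose strain is not given in the sources used here. They were injected at 4-day intervals until death with a CD8a antibody (5 mice, the antibody group) or with an IgG2b isotype control (5 mice, the IgG2b group). The comparisons ask what CD8+ T cells of aged donors change in a young hippocampus, and what an antibody against those cells does to an old one.

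Interneurons are a minority of hippocampal neurons and silence or time the firing of the pyramidal and granule cells around them. They make GABA from glutamate with the glutamate decarboxylases GAD67 (Gad1) and GAD65 (Gad2) and load it into vesicles with the transporter VGAT (Slc32a1). Parvalbumin (Pvalb), a calcium buffer, marks fast-spiking basket and axo-axonic cells that contact cell bodies. Somatostatin (Sst) and neuropeptide Y (Npy) mark cells that contact dendrites, vasoactive intestinal peptide (Vip) marks cells that mainly inhibit other interneurons, and cholecystokinin (Cck) with the cannabinoid receptor CB1 (Cnr1) marks a second basket cell class. Reelin (Reln) is a large secreted protein of neurogliaform and some Sst cells. Several of these transcripts are not exclusive to interneurons: Cck and Cnr1 are also made at lower levels by pyramidal cells, Reln by Cajal-Retzius cells, and Gad1, Gad2 and Slc32a1 by GABA neurons of the striatum and thalamus that border the hippocampus.

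Each library held 9957822 to 15055422 reads assigned to genes, and all 10 genes were detected in every library. Markers of hippocampal excitatory neurons, which define the tissue, were present in every library (8 genes, summed level 55818 to 117019). Levels are normalized counts, which are the reads of a gene divided by 1 scaling factor per library. Differences are on the scale of log2(normalized count + 1), as the treated group minus its control, and come from limma with p-values adjusted over all genes of the table with a mean of at least 10. In whole tissue, fewer interneurons and less RNA per interneuron cannot be told apart.

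The upstream sequences of the genes that the results turn on are shown because pairs among Sst, Npy and Cck were correlated from mouse to mouse, while Cnr1, Reln and Vip had the lowest estimates after the CD8a antibody. Each is the 250 bases before a RefSeq transcription start on GRCm38.p6, written 5′ to 3′ on the gene's strand, and capitals mark the cAMP response element TGACGTCA or its shorter core TGACG on either strand. RefSeq upstream windows were matched for all 10 members, 13 windows in all.
Sst, chr16:23890845-23891094, minus strand: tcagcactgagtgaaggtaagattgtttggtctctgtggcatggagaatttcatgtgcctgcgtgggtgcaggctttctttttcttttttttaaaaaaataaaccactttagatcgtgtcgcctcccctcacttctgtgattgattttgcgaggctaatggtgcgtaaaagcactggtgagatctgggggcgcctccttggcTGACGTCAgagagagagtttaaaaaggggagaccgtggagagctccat
Cck, chr9:121495695-121495944, minus strand: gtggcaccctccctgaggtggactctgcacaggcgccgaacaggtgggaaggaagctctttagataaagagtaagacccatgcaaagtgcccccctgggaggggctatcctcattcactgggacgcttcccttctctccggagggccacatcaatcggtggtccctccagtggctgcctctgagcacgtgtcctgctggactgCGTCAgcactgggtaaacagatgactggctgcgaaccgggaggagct
Vip, chr10:5638968-5639217, plus strand: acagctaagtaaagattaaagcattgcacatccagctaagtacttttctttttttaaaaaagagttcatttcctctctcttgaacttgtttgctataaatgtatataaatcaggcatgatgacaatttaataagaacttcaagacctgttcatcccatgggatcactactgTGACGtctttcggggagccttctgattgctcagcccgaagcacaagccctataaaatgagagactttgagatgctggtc
Npy, chr6:49822460-49822709, plus strand: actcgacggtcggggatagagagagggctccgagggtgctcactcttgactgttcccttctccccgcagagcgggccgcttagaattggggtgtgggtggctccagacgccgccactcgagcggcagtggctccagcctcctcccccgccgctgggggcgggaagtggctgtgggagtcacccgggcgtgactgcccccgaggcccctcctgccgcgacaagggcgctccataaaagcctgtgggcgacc
Reln, chr5:22344706-22344955, minus strand: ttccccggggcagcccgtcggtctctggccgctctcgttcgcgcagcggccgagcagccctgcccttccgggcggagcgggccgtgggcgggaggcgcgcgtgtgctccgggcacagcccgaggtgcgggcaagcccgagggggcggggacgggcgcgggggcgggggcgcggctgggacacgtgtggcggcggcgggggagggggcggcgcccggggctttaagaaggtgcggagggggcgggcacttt
Cnr1, the first of 3 starts, chr4:33924014-33924263, plus strand: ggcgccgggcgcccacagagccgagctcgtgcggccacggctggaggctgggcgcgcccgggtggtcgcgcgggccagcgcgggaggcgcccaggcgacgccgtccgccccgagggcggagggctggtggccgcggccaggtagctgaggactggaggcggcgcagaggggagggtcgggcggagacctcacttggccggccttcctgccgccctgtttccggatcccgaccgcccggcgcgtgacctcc

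The full 8-base element was found in the Sst window alone among the members, at positions -48 to -41 from the start. It was present in 508 of 32851 mouse upstream windows (1.55%). The 5-base core, which the full element also contains on both strands, occurred in Sst, in Vip at -79 to -75, in Cck at -47 to -43 on the opposite strand and in Gad2 at -33 to -29 on the opposite strand, against 17.8% of all windows. The homeodomain core TAATTA was found in none of the 13 windows and in 4.84% of all windows. CpG content differed between windows: Reln held 37 CpG pairs and Npy 21, whereas Sst held 8 and Vip 3, against a median of 6 over all windows. It also depended on the start taken, with 36, 28 and 5 at the 3 Cnr1 starts and 4 and 23 at the 2 Pvalb starts. The GENCODE M21 models of Sst and Gad2 begin inside their windows, upstream of the RefSeq starts, so the matches in both lie inside the GENCODE gene. These matches describe letters, and binding was not measured.

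After the CD8a antibody, 7 of the 10 interneuron genes were lower than after IgG2b, with a median difference of -0.27, where 50.4% of all 13939 genes tested were lower and the median of all genes was -0.0020. Cnr1, Vip and Reln lay lowest, with an unadjusted limma p under 0.05, a mark that 4.15% of all genes reached on the lower side and 4.31% on the higher. Cnr1 was the only member whose groups did not overlap, as held for 1.27% of all genes on the lower side. By limma with adjustment over all genes, 0 of the 10 members and 1 gene of the table (0.00717%), the orphan receptor gene Gpr101, passed an adjusted p of 0.05. DESeq2 on the same reads called 92 of 14024 genes (0.656%), among them 1 member, Cnr1. The plot of member levels in the aged mice shows each mouse.

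**Figure D1:**
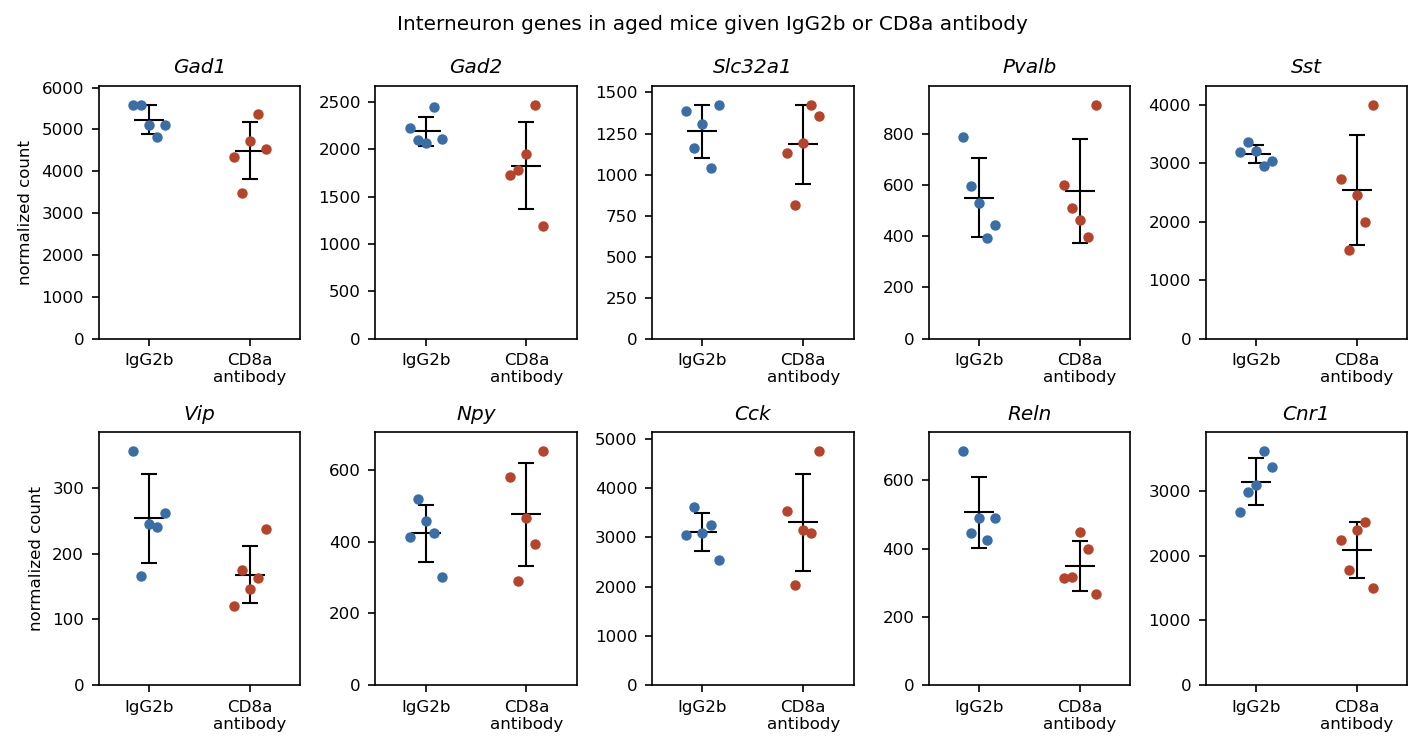
Normalized count (vertical axis, linear, from 0) of each interneuron gene in the 5 IgG2b and 5 CD8a antibody mice. Points are mice and bars are the group mean and SD. The Cnr1 groups do not overlap (1505 to 2526 against 2677 to 3619), and in Sst 4 antibody mice lie below and 1 above all IgG2b mice.

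Cnr1 encodes the CB1 receptor, which lets endocannabinoids suppress GABA release from Cck basket cell terminals. Its normalized counts were 2247, 1783, 2396, 2526 and 1505 in the antibody mice and 2677, 2986, 3092, 3619 and 3368 in the IgG2b mice. Every antibody mouse lay below every IgG2b mouse. The means were 2091 ± 431 and 3148 ± 361 (SD, n = 5 each), a ratio of 0.656 computed from the log2 values (95% interval 0.530 to 0.811), or -0.61 with a standard error of 0.14. The adjusted p was 0.233 by limma and 0.259 by edgeR, and 0.0256 by DESeq2, the value that the authors' deposited table also gives. The DESeq2 call was lost when antibody replicate 1 or 2 or IgG2b replicate 3, 4 or 5 was left out (adjusted p of 0.0763, 0.0523, 0.114, 0.145 and 0.119), and it held without each of the other 5 mice. The size of the difference stayed between -0.67 and -0.49 in these 10 fits.

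Reln encodes reelin, which acts through lipoprotein receptors on synaptic plasticity in the adult brain. Its normalized counts were 315, 315, 447, 399 and 268 in the antibody mice and 685, 445, 490, 425 and 488 in the IgG2b mice. In 4 of the 5 antibody mice the level was below the lowest IgG2b mouse, and the highest antibody mouse overlapped the lower IgG2b mice. The difference was -0.54 (standard error 0.16, adjusted p = 0.331 by limma). For Cajal-Retzius cells, the other known source of reelin, the summed level of 8 listed markers overlapped between the groups. It was 399 to 767 in the antibody mice and 356 to 1046 in the IgG2b mice. None of the 8 was at 0 in every library, but only 6 of the 8 had a mean high enough to be tested. The list includes Calb2 and Ndnf, which are also interneuron subtype markers, so the sum does not isolate Cajal-Retzius cells. Their part in the Reln difference was not tested.

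Vip had normalized counts of 120, 175, 146, 163 and 237 in the antibody mice and 357, 166, 246, 241 and 262 in the IgG2b mice. All 5 antibody mice lay below the IgG2b median, and 3 of them below the lowest IgG2b mouse. The difference was -0.59 (standard error 0.20, adjusted p = 0.427 by limma), and Vip had the fewest reads of the 10 genes in all 4 groups.

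Sst showed a split group. Its counts were 2730, 1514, 2461, 1994 and 4003 in the antibody mice, against a narrow 2960 to 3362 (median 3197) in the IgG2b mice. Replicates 1 to 4 of the antibody group were below all IgG2b mice and replicate 5 was above all of them. The difference was -0.39 (95% interval -0.80 to 0.03, adjusted p = 0.621 by limma), and -0.57 (adjusted p = 0.110) without replicate 5.

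The genes that make and load GABA were lower by less. Gad1 read 4338, 3480, 4724, 5365 and 4538 after the antibody against 4807 to 5591 (median 5104) after IgG2b, and Gad2 read 1733, 1784, 1957, 2474 and 1188 against 2073 to 2447 (median 2113). For each gene 4 of the 5 antibody mice were below all IgG2b mice, with replicate 4 the exception in both. The differences were -0.23 for Gad1 (adjusted p = 0.617) and -0.30 for Gad2 (adjusted p = 0.632), with 95% intervals of -0.48 to 0.02 and -0.63 to 0.03. Slc32a1, the vesicle transporter, ranged from 812 to 1426 after the antibody and from 1038 to 1426 after IgG2b, a difference of -0.11 (95% interval -0.43 to 0.20).

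The remaining class markers lay on the other side of 0 or near it. Pvalb was 398 to 912 after the antibody and 391 to 786 after IgG2b, a difference of 0.05 (95% interval -0.42 to 0.52). Npy differed by 0.14 (-0.30 to 0.57) and Cck by 0.04 (-0.34 to 0.43). In all 3 the highest of the 10 mice was antibody replicate 5, at 912, 652 and 4751 normalized counts. None of these intervals shows that the gene was unaltered: each still holds differences as large as that of Sst or nearly so.

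**Figure D2:**
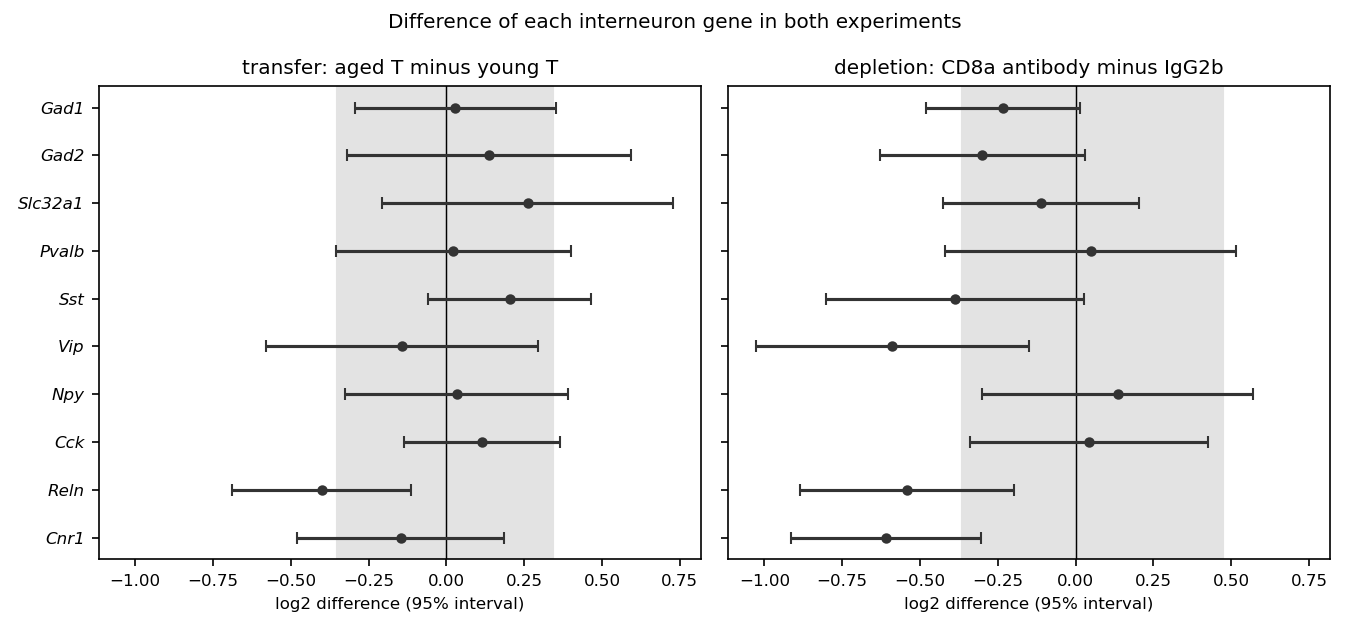
Difference of each interneuron gene on the log2 scale (horizontal axis) in the transfer (left) and depletion (right) experiments. Points are limma estimates, bars are 95% intervals, and the grey band holds the central 90% of differences over all genes tested. In the depletion panel Cnr1, Vip, Reln and Sst lie to the left of the band, and in the transfer panel Reln does.

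The antibody and IgG2b hippocampi also differed in markers of position along the long axis. A score of 4 ventral minus 4 dorsal hippocampal markers was -2.04 to -1.26 in the antibody mice and -0.92 to -0.35 in the IgG2b mice, without overlap, and the summed ventral markers were 1143 to 1451 against 1567 to 2162. Interneuron classes are not spread evenly along this axis. With the score as a covariate, Vip changed sign (0.26, adjusted p = 0.837), Reln was -0.70 (adjusted p = 0.519), and Cnr1 was -1.11 (adjusted p = 0.284). The plot of level against this score shows that the score and the group cannot be told apart in these mice, since no antibody mouse has the score of any IgG2b mouse.

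**Figure D3:**
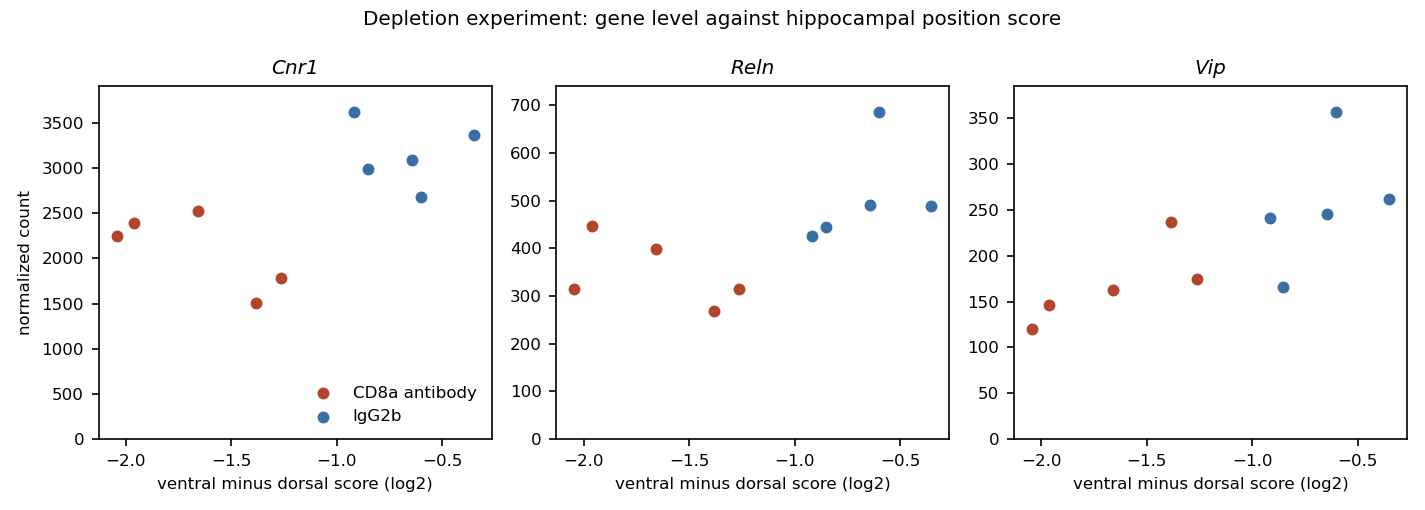
Normalized count of Cnr1, Reln and Vip (vertical axes, from 0) against the ventral minus dorsal marker score (horizontal axis, log2) in the 10 aged mice. Points are mice. The antibody mice lie at scores of -2.04 to -1.26 and the IgG2b mice at -0.92 to -0.35, so the groups are separated on the horizontal axis too.

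Markers of other cells moved with the group as well, and their part in the differences was not tested. The summed level of 8 microglia genes was 6478 to 7678 after the antibody and 5436 to 6110 after IgG2b, without overlap, and all 8 were higher, 5 with an unadjusted p under 0.05 (median 0.32). All 8 oligodendrocyte genes were higher too, 5 with an unadjusted p under 0.05 (median 0.41), with overlapping sums of 49121 to 94378 against 46578 to 60035. The 8 pan-neuronal genes summed to 68844.5 to 81498 against 80205.5 to 90802, with 7 of the 8 lower. Values relative to these neuronal genes move every gene up by the same amount, the median of all genes to 0.12, Cnr1 to -0.48 (adjusted p = 0.289) and Slc32a1 to 0.01. Sums of neocortical genes were 3748 to 4192 against 4183 to 5279, and 6 of the 8 were lower. Excitatory neuron (7 of 8 higher), astrocyte (6 of 8), striatum (7 of 7 tested), thalamus (4 of 7 tested) and choroid plexus sums (8 of 8) overlapped, and no marker of any list was at 0 in every library.

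Transcript length set antibody replicate 5 apart. Across 13430 other genes of the depletion table the difference between groups ran lower with longer transcripts (Spearman's rho -0.30, a description across genes). In that library the deviation from the mean of all mice followed length with a rho of -0.66. The other mice ranged from -0.18 (IgG2b replicate 2) to 0.40 (IgG2b replicate 4). The members span this range: Npy (566 bases), Sst (721), Cck (799) and Pvalb (977) are short, and Gad2 (5744), Cnr1 (5807) and Reln (11699) are long. Replicate 5 had the highest Sst, Npy, Cck and Pvalb and the lowest Gad2, Reln and Cnr1 of its group. Without this library Cnr1 was -0.50 (adjusted p = 0.0913), Reln -0.45 (0.208), Vip -0.72 (0.127) and Gad2 -0.15 (0.564). With the length trend subtracted in every library, all 10 members were lower after the antibody. The median of the 13440 genes in that fit was -0.020, and the share of them that was lower was not counted. Cnr1 was -0.56 (adjusted p = 0.102 by limma), Vip -0.68 (0.222) and Sst -0.59 (0.253). Over the 11 alternative settings with all mice, this one included, the long Reln ranged from -0.70 to -0.36 and Gad2 from -0.64 to -0.15.

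**Figure D4:**
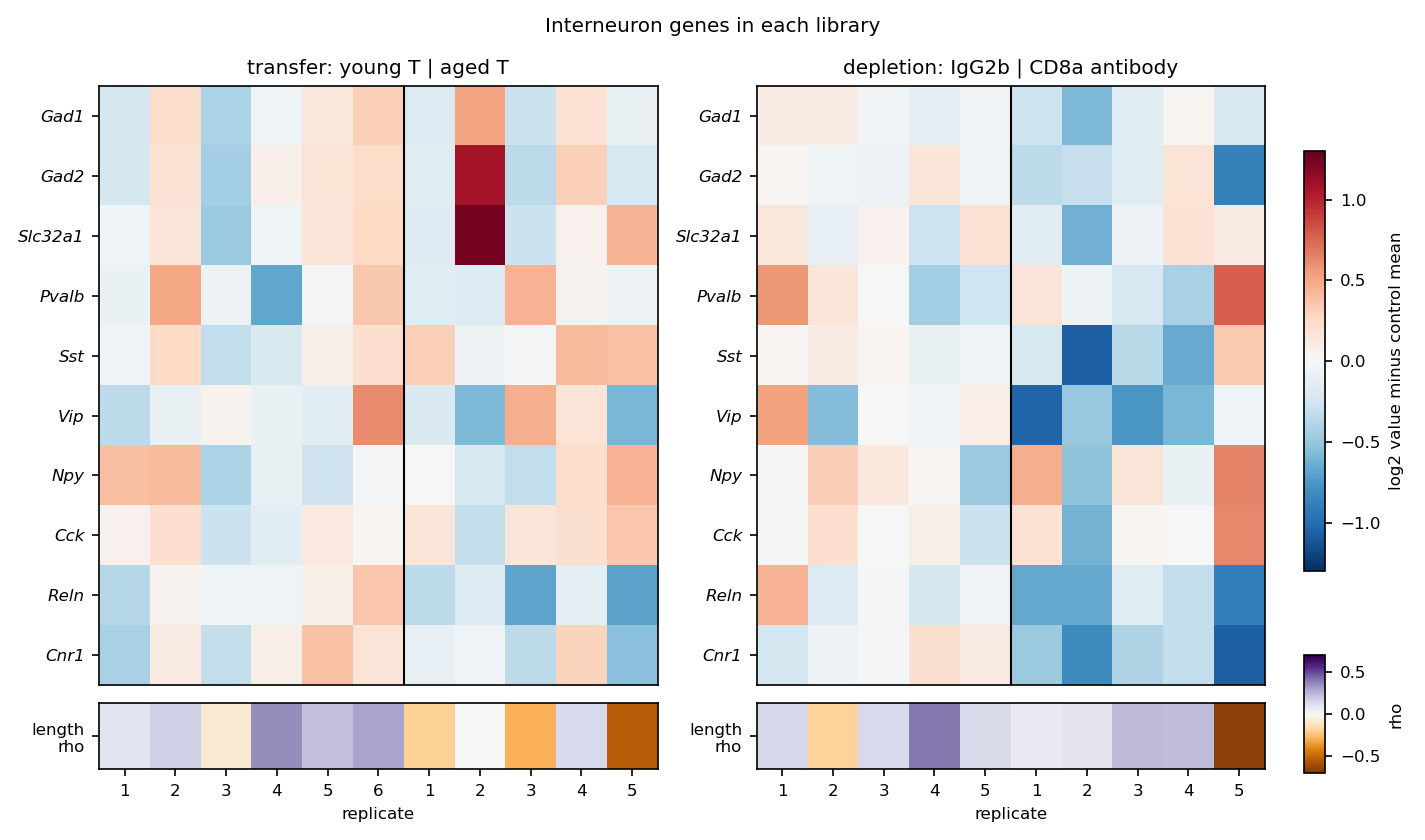
Each interneuron gene (rows) in each mouse (columns), as the log2 value minus the mean of the control group, with control mice left of the black line and treated mice right of it. The strip below gives Spearman's rho between a library's gene deviations and transcript length. In antibody replicate 5 (rho -0.66) the short Sst, Npy, Cck and Pvalb are high and the long Gad2, Reln and Cnr1 low, and aged-T replicate 2 stands out in Gad2 and Slc32a1.

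The weight given to single libraries mattered. Array weights in limma give less weight to libraries that scatter more around their group means in these same data, and use no separate quality measure. With them 267 genes (1.92%) and 2 members were called after the antibody, Cnr1 (-0.45, adjusted p = 0.0262) and Vip (-0.74, adjusted p = 0.0286). With the level of Zic genes as a covariate, a choice made after seeing the data, 28 genes (0.201%) and Cnr1 (-0.70, adjusted p = 0.0438) were called.

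Other genes of the interneuron program were set beside these members, in lists also chosen with earlier results of these data known. Their counts are a description and no independent check. Of 15 tested transcription factors of the GABA lineage, 11 were lower after the antibody, 2 with an unadjusted p under 0.05, and 0 were called by limma. Nr2f2, a factor of caudal ganglionic eminence interneurons, was 181 to 505 against 430 to 715 (-0.997, adjusted p = 0.245). Lhx6, which specifies the Pvalb and Sst classes, was 171 to 228 against 243 to 283 without overlap (-0.38, adjusted p = 0.362). Dlx2, a pan-GABA lineage factor, was -0.39 (adjusted p = 0.639). The authors' deposited table gives Nr2f2 an adjusted p of 0.0394.

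Among 19 tested markers of other interneuron subtypes, 15 were lower, 4 of them with an unadjusted p under 0.05. Kit, a receptor tyrosine kinase of neurogliaform and some basket cells, was 723 to 1175 against 1284 to 1819 without overlap (-0.65, adjusted p = 0.175). Kcnc2, a fast potassium channel subunit of fast-spiking cells, was 692 to 992 against 1032 to 1291 without overlap (-0.53, adjusted p = 0.233). In the authors' deposited table Kit has an adjusted p of 0.00402 and Kcnc2 of 0.0190. Penk, which encodes enkephalin, went the other way, at 279 to 418 against 225 to 283 (0.43, adjusted p = 0.334).

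Of the 10 tested receptors for the members' peptides 9 were lower. Sstr1, a somatostatin receptor, was 172 to 387 against 431 to 673 without overlap (-0.96, adjusted p = 0.148 by limma), and the authors' deposited table gives it an adjusted p of 0.00149. Sstr2 (-0.45, adjusted p = 0.674) and Sstr3 (-0.19, adjusted p = 0.682), further somatostatin receptors, differed by less. Of 10 genes for GABA supply, uptake and breakdown 7 were lower, among them the glutamine transporter Slc38a1 (917 to 1937 against 1784 to 2326, -0.35, adjusted p = 0.632).

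Partners of reelin and of CB1 had medians near 0. Of 8 reelin receptors and adaptors 5 were lower, with a median of -0.07, and those with the smallest p were Pafah1b1 (-0.27, adjusted p = 0.589), Crkl (-0.23, 0.647) and the adaptor Dab1 (-0.11, 0.831). Of 8 enzymes and partners of endocannabinoid synthesis and breakdown 6 were higher, with a median of 0.09, among them the degrading lipase Mgll (0.18, adjusted p = 0.723) and the synthetic lipases Dagla (0.19, 0.799) and Daglb (0.12, 0.814). Of 9 brain matrix genes, listed for the perineuronal net around Pvalb cells but not all confined to it, 6 were lower. The smallest p-values were those of Hapln2 (0.42, adjusted p = 0.520), which is not a marker of that net, Tnr (-0.32, 0.697) and Bcan (0.19, 0.717). Limma called 0 genes in any of these lists.

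Transfer of aged rather than young CD8+ T cells left the interneuron genes spread on both sides of 0. In the young recipients 7 of 10 members were higher in the aged-T group, with a median of 0.03, where 51% of the 14162 genes tested were lower. By limma 0 genes of the table (0%) were called, members included, and DESeq2 and edgeR also called 0 (0%). An unadjusted limma p under 0.05 was reached by 3.96% of all genes on the lower side and 4.29% on the higher, and by 1 member, Reln, on the lower. No member's groups were free of overlap, as 0.699% of all genes were.

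**Figure D5:**
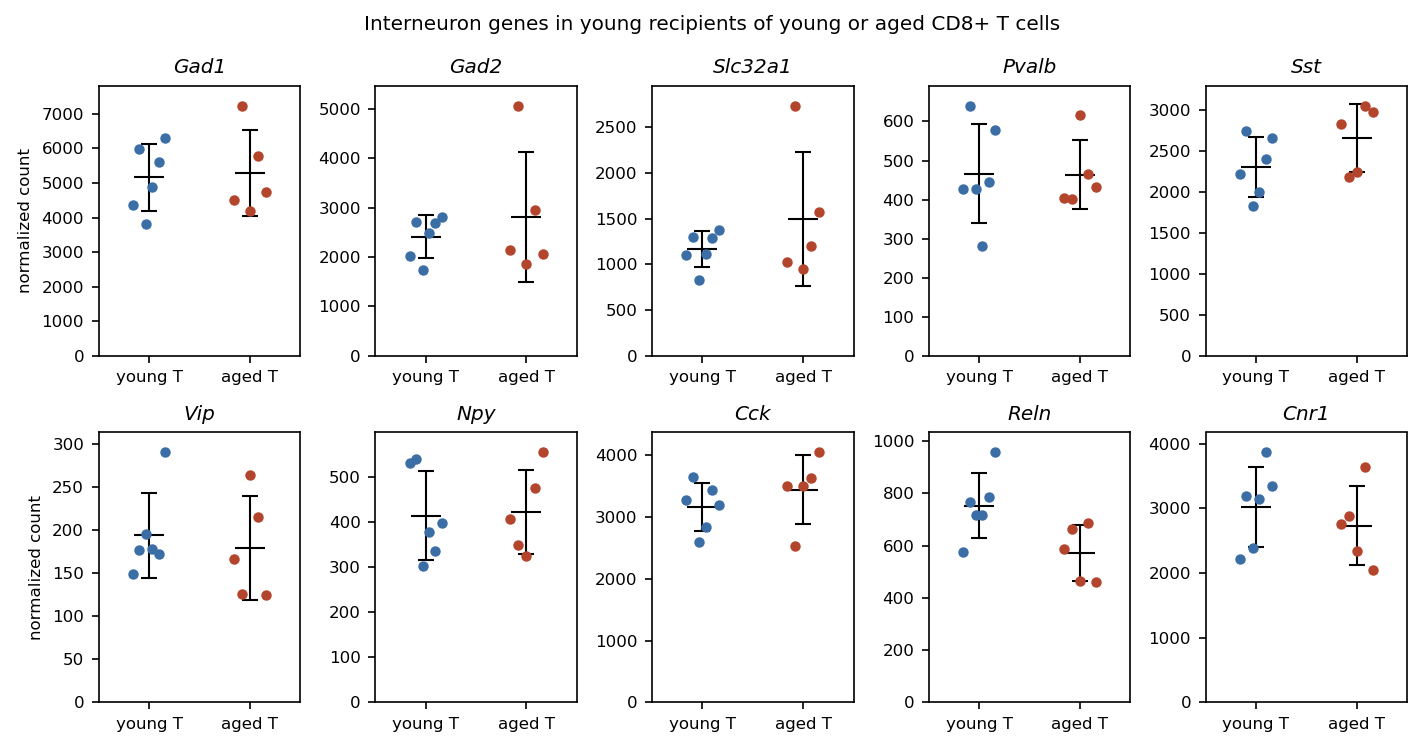
Normalized count (vertical axis, linear, from 0) of each interneuron gene in the 6 young-T and 5 aged-T mice. Points are mice and bars are the group mean and SD. All groups overlap; the 5 aged-T mice lie below the median of the young-T mice in Reln, and 1 aged-T mouse is far above the others in Gad2 and Slc32a1.

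Reln read 586, 665, 463, 685 and 459 in the aged-T mice and 574 to 956 (median 743) in the young-T mice. All 5 aged-T mice were below the young-T median and 2 were below the lowest young-T mouse. The means were 572 ± 108 (SD, n = 5) and 753 ± 124 (SD, n = 6), a ratio of 0.757 (95% interval 0.620 to 0.925) and a difference of -0.40 (standard error 0.14, adjusted p = 0.600 by limma). Reln is the longest member, and differences in the transfer table also ran lower with transcript length (rho -0.51 across 13646 genes). With that trend subtracted the Reln difference was -0.22. Aged-T replicates 3 and 5, with the 2 lowest Reln levels, also had the 2 lowest rho values with length of the transfer libraries (-0.30 and -0.54).

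For Gad2 and Slc32a1 1 mouse moved the difference most. Gad2 read 2140, 5053, 1866, 2943 and 2054 in the aged-T mice against 1746 to 2814 in the young-T mice, and Slc32a1 read 1026, 2731, 952, 1203 and 1569 against 827 to 1377. Aged-T replicate 2 was far above every other mouse in both, and at 7223 it also had the highest Gad1. The same library had the highest Zic1 (1516, against 82.1 to 426 in the other 10 mice), a transcription factor of septal and thalamic neurons, and the highest thalamic marker Prkcd (1235) and striatal marker Drd2 (102). Its summed thalamus and habenula markers were 2749, against 891 to 1652 in the other mice, while its summed striatum markers (2171) were below those of aged-T replicate 5 (2312). With all mice the differences were 0.14 for Gad2 (adjusted p = 0.869), 0.26 for Slc32a1 (0.730) and 0.03 for Gad1 (0.969), and without this mouse -0.10, 0.01 and -0.09. All 8 oligodendrocyte markers were higher in the aged-T group, 2 with an unadjusted p under 0.05 (median 0.35), and their part in the differences was not tested. Summed marker levels of all the listed cell types and regions, oligodendrocytes included (49572 to 89945 against 42787 to 75487), overlapped between the aged-T and young-T groups, as did the ventral minus dorsal score (-2.27 to -0.58 and -2.53 to -0.83).

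Sst, which was lower in 4 of 5 antibody mice, was 2188 to 3050 in the aged-T mice and 1825 to 2743 in the young-T mice. Here 3 aged-T mice lay above all young-T mice, and the difference was 0.20 (95% interval -0.06 to 0.46, adjusted p = 0.649). These mice included aged-T replicate 5, whose deviations followed transcript length with the lowest rho of the transfer libraries (-0.54). Cck differed by 0.11 (-0.14 to 0.36), Npy by 0.03 (-0.33 to 0.39) and Pvalb by 0.02 (-0.35 to 0.40). With the length trend subtracted, Sst was -0.042, Cck -0.11, Npy -0.26 and Pvalb -0.17. Vip was 125 to 263 against 150 to 290, a difference of -0.14 (-0.58 to 0.29). Cnr1 was 2043 to 3636 in the aged-T mice and 2216 to 3862 in the young-T mice, a difference of -0.15 (-0.48 to 0.18, adjusted p = 0.794). The difference between the experiments was not tested, since the tables were normalized apart.

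In the wider lists of the transfer experiment limma also called 0 genes. Of 15 lineage factors 10 were lower, and the smallest p-values were those of Dlx6 (0.74, adjusted p = 0.600), a factor of the GABA lineage, Sox6 (-0.19, 0.627) and Sp9 (0.48, 0.671). Dlx6 reached 89.1 in 1 aged-T mouse, against at most 30.1 in the young-T mice. Of 20 subtype markers 9 were higher, among them Tac1, which encodes substance P (0.40, 0.600), and Chrna2, a nicotinic receptor subunit of oriens-lacunosum moleculare cells (0.83, 0.600), while nitric oxide synthase Nos1 was -0.35 (0.600).

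Of the 9 matrix genes listed for the perineuronal net 8 were lower in the aged-T mice, 2 with an unadjusted p under 0.05, with a median of -0.12. These were Ncan (2348 to 2981 against 2686 to 3756, -0.22, adjusted p = 0.600) and Tnr (-0.40, 0.600), and aggrecan (Acan) was -0.57 (0.602). Of the GABA handling genes 6 of 10 were lower, with Slc6a13 at -0.75 (adjusted p = 0.635) and the chloride exporter Slc12a5 at -0.16 (0.662). Peptide receptors were split 5 to 5, with Npy1r at -0.24 (0.613), Sstr2 at 0.33 (0.692) and Vipr1 at -0.22 (0.698). Of the reelin partners 6 of 8 were lower, by at most the -0.13 of Dab1 (0.658) and Lrp8 (0.658), with Pafah1b1 at -0.07 (0.851), and endocannabinoid genes spanned -0.26 for Napepld (0.617) to 0.13 for Abhd12 (0.676), with Abhd6 at 0.12 (0.702).

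Per kilobase of longest transcript, Cck and Sst were the most abundant members in all 4 groups. Cck led in the aged-T (4308 ± 697), young-T (3959 ± 483) and antibody (4136 ± 1229) groups and Sst in the IgG2b group (4375 ± 219; normalized counts per kb, mean ± SD), but their ranges overlapped in every group. Gad1 came next, at 1338 to 1575 on average, with its range clear of both. Npy followed (732 to 840 on average) and overlapped Gad1 only in the antibody group. Pvalb, Cnr1, Slc32a1 and Gad2 followed at averages of 318 to 589, in an order that differed between groups and with overlapping neighbours. Vip was ninth in every group (110 to 166) and Reln last (29.8 to 64.3), each with a range clear of its neighbours. GAD67 mRNA was thus above GAD65 mRNA per length in every group average.

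Summed, the 10 genes took 0.106 to 0.163% of all reads in the antibody mice and 0.160 to 0.172% in the IgG2b mice, and 0.120 to 0.181% and 0.112 to 0.161% in the aged-T and young-T mice. The IgG2b mice were the most alike, and the antibody group reached down to a lower share.

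The members did not vary as a single block from mouse to mouse. Over the 45 pairs of members in each experiment, with group means subtracted, Pearson's r ranged from -0.48 to 0.94 (median 0.15) in the transfer mice and from -0.87 to 0.94 (median 0.23) in the depletion mice. Exact permutation p-values within groups, two-sided, were adjusted over the 90 pairs.

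The peptide genes Npy and Cck followed each other most closely in the depletion mice (r = 0.94, rho = 0.95, n = 10, exact permutation adjusted p = 0.0125 and 0.0229), with r = 0.87 without the 2 farthest mice and 0.95 with the length trend subtracted. Sst joined them, with r = 0.86 and rho = 0.93 to Npy (exact permutation adjusted p = 0.0455 and 0.05, r = 0.70 without the 2 farthest mice and 0.87 with the length trend subtracted). In the transfer mice Sst followed Cck (r = 0.80, rho = 0.69, n = 11, exact permutation adjusted p = 0.0302 and 0.203, r = 0.67 without the 2 farthest mice, and 0.90 with the length trend subtracted). The other 3 pairs among these genes did not pass by either measure: Sst with Cck in the depletion mice (r = 0.92, rho = 0.83, exact permutation adjusted p = 0.0930 and 0.121, r = 0.48 without the 2 farthest mice), and in the transfer mice Sst with Npy (r = 0.70, rho = 0.76, exact permutation adjusted p = 0.183 and 0.121) and Npy with Cck (r = 0.65, rho = 0.67, exact permutation adjusted p = 0.194 and 0.216). All 3 genes encode secreted neuropeptides, and Sst and Npy are made together in some dendrite-targeting cells.

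The 2 decarboxylases were coupled in the transfer mice (Gad1 with Gad2: r = 0.94, rho = 0.95, exact permutation adjusted p = 0.00417 and 0.00313, n = 11, r = 0.94 without the 2 farthest mice). In the depletion mice the same pair had r = 0.27 and rho = 0.20 (exact permutation adjusted p = 0.900 and 0.879, n = 10), and 0.52 with the length trend subtracted. Gad1 followed Slc32a1 in the transfer mice (r = 0.84, rho = 0.82, exact permutation adjusted p = 0.0455 and 0.0708, r = 0.70 without the 2 farthest mice), and Reln followed Cnr1 there (r = 0.83, rho = 0.89, exact permutation adjusted p = 0.0455 and 0.0229, r = 0.67 without the 2 farthest mice and 0.61 with the length trend subtracted). Pvalb and Cnr1 ran opposite in the depletion mice (r = -0.87, rho = -0.83, exact permutation adjusted p = 0.0455 and 0.0708), a relation that dropped to r = -0.65 without the 2 farthest mice and to -0.52 with the length trend subtracted.

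Genes that shared the pattern of Gad2 over both experiments were ranked by the lower of its 2 within-group correlations (11 and 10 mice), as a description over 13863 genes. The 10 most alike were Dnm3, Pgap1, Inpp5f, Pptc7, Fam169a, Clasp1, Col4a3bp, Chd6, Vldlr and Slc38a1, with lower correlations of 0.84 to 0.87. Among the members the order was Cnr1 (420), Reln (664), Gad1 (2252) and Slc32a1 (4684), and the short Pvalb stood at 12752. The length trend differs between libraries, and its part in this ranking was not tested.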

How the data were processed

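The values come from RNA-seq libraries of poly(A) RNA. STAR, RSEM, DESeq2 and mm10 are named, without versions or roles, per the submitters' processing notes. The kit is strand-specific, per the labels' protocols. The authors deposited 1 table per experiment of normalized counts, a signal that is reads divided by 1 size factor per library, as the values show. Beside it the authors deposited their own log2 fold changes, signed control over treated, with p-values, adjusted p-values and a test statistic score, in columns named as DESeq2 names them, per the file headers. Dividing by each library's smallest step gave whole reads for 100.0% of values (relative tolerance 1e-06). Library totals were 9957822 to 15055422 reads. At this depth 3 reads correspond to 2.51 to 3.59 normalized counts, a limit for counting error only.

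The main test was limma 3.58.1 (trend, R 4.3.3) on log2(normalized count + 1), with genes of mean at least 10, Benjamini-Hochberg adjustment over all tested genes and a call at an adjusted p under 0.05, fitted to each table alone with no covariate. The procedure was also run on simulated counts. There each gene varied independently, with no length trend and no outlying library, so the simulation does not cover these features of the data. Alternatives were pseudocounts of 0.5 and 5, no filter, edgeR 4.0.16 and DESeq2 1.42.0 on recovered whole reads, TMM scaling, array weights, a ventral minus dorsal score, subtraction of the length trend, and each mouse left out. Added after seeing the data were scaling to pan-neuronal genes, a Zic gene covariate (Zic1, Zic2, Zic4, Zic5) and DESeq2 without each mouse. Each library was taken as 1 mouse from the animal numbers in the titles, and replicates were numbered in accession order.

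Transcript lengths are the longest GENCODE M21 transcript (GRCm38), known for 95.76% of symbols. The 10 members and all lists were chosen with earlier results of these data known. From each list the 3 genes with the smallest p in each experiment were named where none was called, except that some genes are not reported here. Marker lists share some genes: Calb2, Lamp5 and Ndnf are also subtype markers, and Spink8 stands in 2 lists.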

Additional observations from a re-analysis of the deposited data

Results flagged for a closer look

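Of 40 groups of members checked, 2 held a mouse far from the rest of its group, and chance flags about 1 in 20 groups. Vip in young-T replicate 6 was 290 normalized counts, where the next highest mouse of the group had 196 and the lowest 150. Reln in IgG2b replicate 1 was 685, where the next highest had 490 and the lowest 425.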

How the results depend on the processing

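No paired analysis was possible because the replicate numbers were given in accession order and the animal numbers in the labels are not shared between groups. In the depletion experiment the number of genes called, 1 by limma, was 0 without the filter, 92 with DESeq2, 267 with array weights, 0 with the ventral minus dorsal score, 0 relative to pan-neuronal genes, 28 with the Zic covariate and 0 to 25 without 1 mouse each. Members called were 1 with DESeq2, 2 with array weights and 1 with the Zic covariate, and 0 in the other limma and edgeR depletion fits and in every transfer fit. DESeq2 without 1 mouse each, read for Cnr1 alone, called it in 5 of 10 fits (adjusted p of 0.00768 to 0.145). The members' median was -0.50 with the ventral minus dorsal score. Signs changed in the transfer experiment for Pvalb (edgeR -0.013, DESeq2 -0.0075, array weights -0.078, length trend -0.17), Gad1 and Npy (array weights -0.067 and -0.014) and, with the length trend subtracted, Sst (-0.042), Npy (-0.26) and Cck (-0.11). Without 1 mouse each, Gad1 ranged from -0.091 to 0.10, Gad2 from -0.10 to 0.26, Npy from -0.073 to 0.12 and Pvalb from -0.11 to 0.12. In the depletion experiment signs changed for Pvalb (array weights -0.084, length trend -0.10), Npy and Cck (ventral minus dorsal score -0.56 and -0.40, length trend -0.10 and -0.14), Vip (ventral minus dorsal score 0.26) and Slc32a1 (relative to pan-neuronal genes 0.014, where the median of all genes moved to 0.12). Without 1 mouse each, Pvalb ranged from -0.13 to 0.19, Cck from -0.10 to 0.21 and Slc32a1 from -0.18 to 0.018. Cnr1, Reln, Gad1, Gad2 and Sst kept their sign in all 21 depletion alternatives, and Reln, Cnr1, Vip and Slc32a1 in all 22 transfer alternatives. The cause of these changes was not tested. With 5 or 6 mice a group, the number of mice limits the precision.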
